A study of Mus musculus with 24 samples.

Results

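Polysome loading in the wild-type mouse striatum was compared between the nucleus accumbens (Acb, labelled Nac) and the dorsal striatum (DS, labelled DStr). The members were the 12 libraries of wild-type tissue among the 24 of the series, chosen by their labels. They came from 2 regions and 2 kinds of RNA, with 3 replicates in each of the 4 groups. One kind was RNA of whole lysates (Total), and the other was RNA of the heavy polysomal fractions (Heavy) of the same lysates after a sucrose gradient. No treatment is given for the sequenced mice, which were wild-type littermates of the phospho-deficient rpS6 knockin line (rpS6P-/-), on a mixed C57Bl/6/Sv129/ICR background, and both sexes were used. Their age was not given in the sources used here. Each replicate was a pool of dissected tissue from several mice, and the sources give different numbers of mice per pool. Lysates were made in a polysome buffer with cycloheximide, which holds ribosomes in place on the mRNA. The Acb was cut from a more anterior slice of the brain than the DS.

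Ribosomes that read the same mRNA at once form a polysome, and polysomes with more ribosomes sink deeper into a sucrose gradient. The share of an mRNA that is found in the heavy fractions, relative to the whole lysate, is therefore read as its polysome loading. A short coding sequence has room for few ribosomes, so the length of an mRNA weighs on this measure by itself. Most neurons of both regions are GABAergic medium spiny neurons, which respond to dopamine and glutamate. The mRNAs of ribosomal proteins carry a 5' terminal oligopyrimidine (TOP) tract, an unbroken run of C and U that starts at the cap and through which mTOR signalling sets their translation. Ribosomal protein S6 itself, the product of *Rps6*, belongs to this family.

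For each gene, the loading was the log2 ratio of heavy polysomal over whole lysate reads, and the interaction was the loading in Acb minus the loading in DS. A negative interaction means that the mRNA was less represented in heavy fractions, relative to its lysate, in Acb than in DS. Levels are given as read counts normalised to library size (CPM), and values of the same lysate are listed in the order of replicates 1, 2 and 3. Since the tissue was not sorted, fewer cells of a type and less RNA per cell cannot be told apart in any of these values.

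The libraries held between 9280589 and 34703044 assigned reads. *Bc1*, a short noncoding RNA of dendrites, took 18.1 to 25.6% of the reads of Acb whole lysates and 19.9 to 24.8% in DS, but 0.933 to 3.0% and 2.40 to 3.85% in the heavy fractions. Replicates of a group correlated between 0.945 and 0.980 on the log2 CPM scale. The heavy polysomal library of DS lysate 1 stood apart from the other DS replicates on the first principal component, at 64.6 against 32.0 and 37.3. Values without that lysate are given for the DS loading and for several gene lists. Markers of medium spiny neurons were present in every library, with a summed level of 5459 to 7899 CPM.

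No gene passed the test for an interaction of RNA fraction with region. Of 16684 genes tested by edgeR, 0 had an adjusted p under 0.05 (0%), and the lowest adjusted p was 0.839. At an unadjusted p under 0.05 there were 767 genes (4.60%), 481 lower in Acb (2.88%) and 286 higher (1.71%). DESeq2 called 1 gene, *Susd3*, which had no read in DS whole lysates. EdgeR with a term for each lysate (the block), which compares the fractions within a lysate, called 7 genes (0.0420%), 5 lower in Acb (0.0300%) and 2 higher (0.0120%). In that fit the error of a gene did not follow the spread of its own lysates, so its calls do not measure that spread. The standard error of the interaction had a median of 0.31 on the log2 scale over the 11960 genes with a mean of at least 50 reads, and 90 percent of those genes had an interaction between -0.67 and 0.62. Interactions under -1 were measured for 191 of them and over 1 for 194.

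Within each region, by contrast, many mRNAs differed between the heavy polysomal fractions and the whole lysate. In Acb, 3852 genes (23.1%) passed, of which 1960 were higher in heavy fractions (11.7%) and 1892 were lower (11.3%). In DS, 4055 genes (24.3%) passed, with 2269 higher (13.6%) and 1786 lower (10.7%). Without the whole lysate and heavy libraries of DS lysate 1 the DS count was 2567. Of the 2877 genes that passed in both regions, 2877 went the same way and 0 went opposite ways. Across the 11960 genes with at least 50 reads, the loadings of the regions had a Spearman correlation of 0.80, a description across genes that are not independent.

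**Figure D1:**
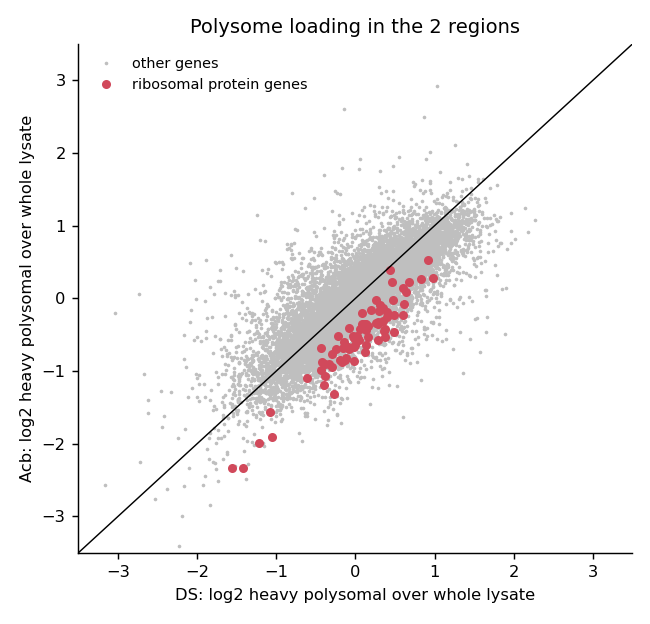
Polysome loading of 11954 genes with a mean of at least 50 reads, as log2 of heavy polysomal over whole lysate, in DS (horizontal axis) and Acb (vertical axis), with 6 further genes beyond the axes. Genes lie along the line of equal loading, and the 72 ribosomal protein genes lie below it, with loadings of lower value in Acb than in DS.

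The mRNAs of cytosolic ribosomal proteins were the group with the lowest fitted interactions, although none of its genes passed alone. The table holds 76 of these genes, 75 could be tested, and 72 had at least 50 reads on average. The interaction was negative for 75 of 75 genes, and 60 of them had an unadjusted p under 0.05, against the 2.88% of all genes in that direction. Genes of a list are not independent of each other, so such counts, here and below, describe the list and do not test it. The median interaction was -0.60 on the log2 scale, where the median over all genes was -0.03. Among the 50 genes with the lowest p in this direction, 23 were ribosomal protein genes. The large subunit (45 genes, median -0.57) and the small subunit (30 genes, median -0.61) had medians close to each other. Ribosomal protein genes have many near-identical pseudogenes, so their read counts depend on how multiply aligned reads were treated and are uncertain for single genes.

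Runs of pyrimidines lay near the annotated start sites of many of these genes, and 8 are shown because a TOP tract is such a run. They belong to 5 genes named for a low interaction, to *Rps6* itself, and to *Rpl15* and *Rpl7a*, whose interactions were weak. Each stretch has 30 bases of the gene's strand and is placed around the run, not around the start. The longest run of C and T within 50 bases of the start is in capitals (GRCm38.p6, RefSeq). Where a gene had several annotated starts, the start with the longest run was taken.
Rpl37, chr15:5116632-5116661, plus strand: gcgggggtgCTTTCTCTTCCggtctctttg
Rpl13, chr8:123102324-123102353, plus strand: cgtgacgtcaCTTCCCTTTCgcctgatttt
Rps18, chr17:33955647-33955676, minus strand: tcacttccgCTCTCTCTTCCacaggaggcc
Rpl36a, chrX:134585673-134585702, plus strand: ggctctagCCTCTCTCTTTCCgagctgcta
Rpl18, chr7:45718062-45718091, plus strand: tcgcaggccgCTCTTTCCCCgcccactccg
Rps6, chr4:86857349-86857378, minus strand: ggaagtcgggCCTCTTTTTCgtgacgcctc
Rpl15, chr14:18270967-18270996, minus strand: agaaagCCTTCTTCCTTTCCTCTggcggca
Rpl7a, chr2:26910789-26910818, plus strand: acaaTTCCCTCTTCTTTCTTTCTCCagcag
The run begins 28 bases after the RefSeq start in *Rpl37*, 27 bases after it in *Rpl36a* and 16 bases before it in *Rpl13*, so these stretches do not show a tract at the annotated start. In *Rps18*, *Rpl18*, *Rps6* and *Rpl15* it begins within 4 bases of the start taken, and in *Rpl7a* it begins 14 bases before it. For *Rpl18* the start taken lies well inside the gene (chr7:45715467-45720835). With the start chosen in this way, a run of at least 8 C or T was found within 50 bases of it in 45 of 53 ribosomal protein genes (84.9%). These 53 were the genes matched to the promoter table among the 72 with at least 50 reads. The same was true of 3567 of 9562 matched genes with at least 50 reads (37.3%) and of 10614 of 27025 genes in the RefSeq table (39.3%). The median longest run was 11 bases in ribosomal protein genes and 7 bases in the genes with at least 50 reads. Only genes with a run of at least 8 C or T were eligible to be shown. Its presence in *Rpl15* and *Rpl7a* therefore says nothing about genes with weak interactions.

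The levels of these mRNAs lay apart between the regions in whole lysates and overlapped in heavy fractions. In whole lysates the summed level of ribosomal protein mRNAs was 26820, 28223 and 34068 CPM in Acb and 23298, 23174 and 19262 CPM in DS. Thus the lowest Acb lysate lay above the highest DS lysate. In heavy polysomal fractions the summed level was 22055, 19481 and 19061 CPM in Acb and 24498, 19154 and 22916 CPM in DS, and the regions overlapped. Per gene, the mean level in whole lysates was higher in Acb for 72 of the 72 genes with at least 50 reads, with a median log2 difference of 0.44. For 60 of them the 3 Acb lysates lay above the 3 DS lysates without overlap, which held for 15.9% of all genes with at least 50 reads. In heavy fractions the mean was higher in Acb for 11 of 72 genes, with a median log2 difference of -0.16. There, 0 genes lay above without overlap (14.3% of all such genes) and 4 lay below (15.9%), and in whole lysates 0 lay below (15.7%).

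**Figure D2:**
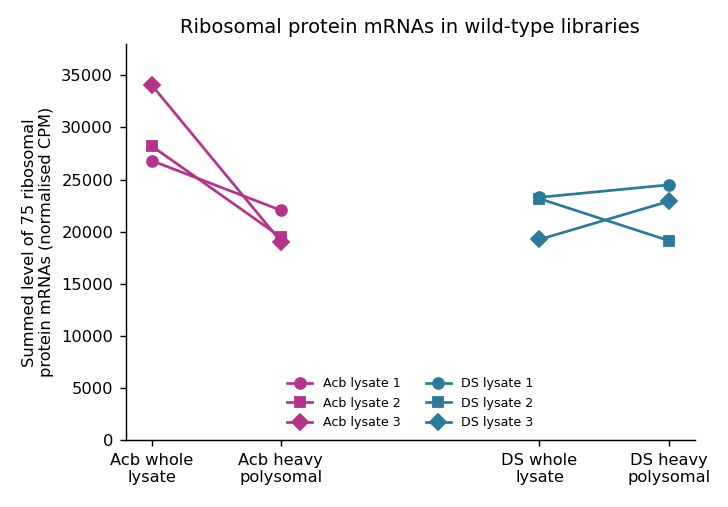
Summed normalised level of cytosolic ribosomal protein mRNAs in CPM (vertical axis, from 0) in the 12 wild-type libraries, each point a library. The 3 Acb whole lysates, at 26820 to 34068 CPM, lie above the 3 DS whole lysates, at 19262 to 23298 CPM, whereas the heavy polysomal libraries of the regions overlap.

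Lysate by lysate, the median difference of heavy polysomal and whole lysate log2 CPM over these genes was -0.21, -0.52 and -0.72 in Acb and 0.16, -0.28 and 0.31 in DS. Acb lysate 1 and DS lysate 2 thus overlapped, and the other 4 lysates were apart by region. Over all genes with at least 50 reads the same medians lay between 0.02 and 0.06. For 30 of the 72 ribosomal protein genes the 3 Acb lysates lay below the 3 DS lysates without overlap, against 5.85% of all genes with at least 50 reads. Within Acb, 42 ribosomal protein genes were lower in heavy fractions and 2 were higher, by the test of loading. Within DS, 8 were lower and 12 were higher. Over all genes tested, 11.3% were lower and 11.7% higher in Acb, and 10.7% were lower and 13.6% higher in DS, so that the DS counts lay near the shares of all genes. The median loading was -0.52 in Acb and 0.08 in DS, and the order of the genes was shared, with a Spearman correlation of 0.907 across 72 genes.

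**Figure D3:**
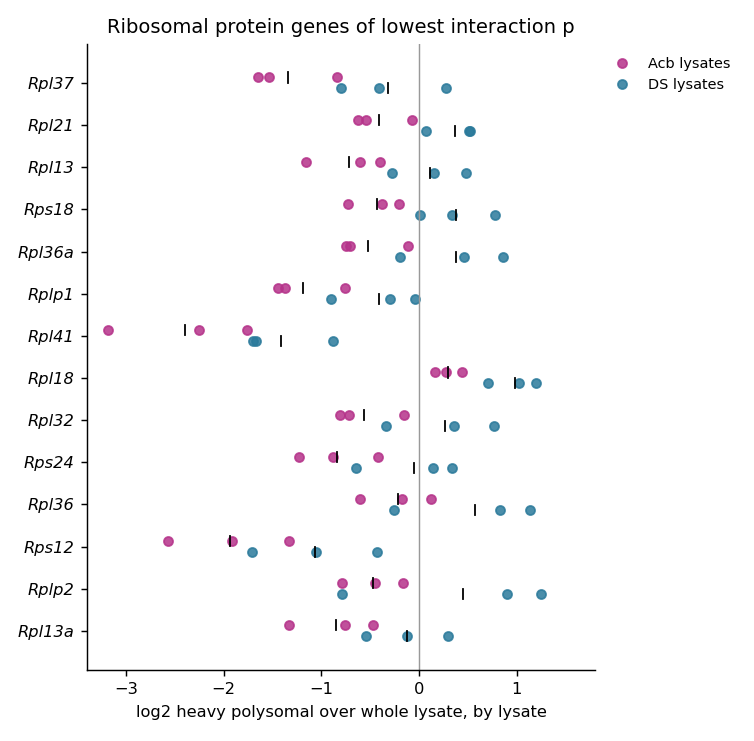
Difference of heavy polysomal and whole lysate log2 CPM in the 6 wild-type lysates, for the cytosolic ribosomal protein genes with the lowest interaction p. The genes drawn were chosen by that p and are not typical of the family. Over all 72 genes with at least 50 reads, most of them not drawn, the medians by lysate are -0.21, -0.52 and -0.72 in Acb. In DS they are 0.16, -0.28 and 0.31, so that Acb lysate 1 and DS lysate 2 overlap.

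*Rpl37*, a component of the large subunit (chr15:5116613-5119140), had the lowest interaction among the 72 genes with at least 50 reads. Below it were only *Rpl30* (-2.09 ± 2.07) and *Rps27* (-1.48 ± 1.44), which had fewer reads and large errors. Its level in Acb was 254, 266 and 296 CPM in whole lysates and 142, 91.7 and 94.5 CPM in heavy fractions. In DS it was 172, 163 and 143 CPM in whole lysates and 129, 93.4 and 174 CPM in heavy fractions. The whole lysates of the regions did not overlap, and the heavy fractions did. The lysate differences were -0.84, -1.54 and -1.65 in Acb and -0.42, -0.80 and 0.27 in DS, with each Acb lysate below each DS lysate. The interaction was -1.04 ± 0.25 (SE) on the log2 scale (adjusted p = 0.839 by edgeR). With the lysate as a block it was -1.03 ± 0.22 with an adjusted p of 0.0109, which passed.

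*Rpl41*, which encodes a very short peptide of the large subunit (chr10:128548110-128549168), had the lowest fitted loading of the family in Acb. Its level fell from 634, 585 and 785 CPM in Acb whole lysates to 187, 123 and 86.0 CPM in heavy fractions. In DS it fell from 542, 516 and 403 CPM to 170, 159 and 219 CPM. Loading was thus low in both regions, at -2.34 in Acb and -1.42 in DS, with adjusted p of 8.28e-11 and 5.94e-07 by edgeR. The lysate differences, -1.76, -2.25 and -3.19 in Acb against -1.67, -1.70 and -0.88 in DS, came close but did not overlap. The interaction was -0.92 ± 0.26, and it passed with the lysate as a block (-0.98 ± 0.21, adjusted p = 0.0109).

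*Rplp2*, a protein of the stalk of the large subunit, varied more between DS lysates. Its lysate differences were -0.45, -0.17 and -0.79 in Acb and 0.90, -0.79 and 1.25 in DS. DS lysate 2 lay at the level of the lowest Acb lysate. The interaction was -0.95 ± 0.29, and the block gave -0.94 ± 0.22 with an adjusted p of 0.0479. *Rplp1*, its partner in the stalk, had an interaction of -0.79 ± 0.22 and did not pass with the block (adjusted p = 0.106). For both stalk genes the lysates of the regions overlapped.

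*Rpl21*, of the large subunit (chr5:146832890-146837032), was at 658, 774 and 882 CPM in Acb whole lysates and 565, 533 and 483 CPM in DS whole lysates. In heavy fractions it was at 623, 530 and 573 CPM in Acb and 808, 561 and 685 CPM in DS. The order of the regions was therefore opposite between the fractions, without overlap in the whole lysates and with overlap in heavy fractions. The lysate differences were -0.08, -0.55 and -0.62 in Acb and 0.52, 0.07 and 0.51 in DS, and the interaction was -0.80 ± 0.20. *Rps18*, in the head of the small subunit, gave -0.81 ± 0.21 with lysate differences of -0.20, -0.38 and -0.72 in Acb and 0.34, 0.01 and 0.78 in DS. *Rpl13* gave -0.87 ± 0.22 with -0.40, -0.60 and -1.16 in Acb and 0.48, -0.28 and 0.15 in DS. Neither of them overlapped between regions. With the block the adjusted p of these 3 genes lay between 0.087 and 0.107.

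The remaining named members were *Rpl36a* (-0.90 ± 0.25) and *Rpl18* (-0.69 ± 0.20). *Rpl18* was higher in heavy fractions in every lysate, by 0.44, 0.28 and 0.16 in Acb and by 1.02, 0.71 and 1.20 in DS. For this gene, therefore, the loading was lower in Acb although it was above 0 in both regions. *Rps6*, whose product is mutated in the knockin line but intact here, had a weaker interaction than the median of the family. Its level was 395, 448 and 493 CPM in Acb and 340, 332 and 267 CPM in DS whole lysates, against 347, 390 and 308 CPM and 368, 324 and 325 CPM in heavy fractions. The interaction of *Rps6* was -0.47 ± 0.20. At the other end of the family, *Rpl7a* had an interaction of -0.06 ± 0.19, with 253, 292 and 279 CPM in Acb whole lysates and 244, 238 and 251 CPM in DS. *Rpl15* (-0.24 ± 0.20) and *Rpl3* (-0.25 ± 0.20) were also weak, so that the fitted values of the 72 genes with at least 50 reads ran from -1.04 to -0.06.

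Other mRNAs with a TOP tract had values of the same sign, in a list of 19 genes drawn up after values of the data had been seen. Of these, 18 were negative and 5 were lower at an unadjusted p under 0.05, against 2.88% of all genes, with a median interaction of -0.30. *Fau*, which encodes a small subunit protein fused to a ubiquitin-like domain, was at -0.71 ± 0.21. *Tpt1*, the translationally controlled tumour protein, was at -0.61 ± 0.20. The elongation factor *Eef1a1* (-0.27 ± 0.18) and the poly(A)-binding protein *Pabpc1* (-0.35 ± 0.22) did not reach an unadjusted p under 0.05. *Gas5*, a noncoding RNA with a TOP tract, was at 196 and 115 CPM in Acb and DS whole lysates and at 39.4 and 40.0 CPM in heavy fractions, with an interaction of -0.79 ± 0.25. As with the ribosomal proteins, the means of *Gas5* lay apart in whole lysates and close together in heavy fractions.

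Among factors that act on mRNA or on new proteins, translation factors had a median interaction of -0.11, with 41 of 66 negative and 5 lower at an unadjusted p under 0.05. Over all genes tested, 8876 of 16684 were negative and 2.88% were lower at that level. *Eif3f*, a subunit of initiation factor eIF3, was at -0.68 ± 0.23 and *Eif5b*, which joins the subunits, was at -0.68 ± 0.24. Chaperonin, prefoldin and heat shock genes, which assist protein folding, had a median of -0.28, with 21 of 22 negative and 5 with a p under 0.05. *Pfdn5* (-0.73 ± 0.24) and *Cct4* (-0.54 ± 0.23) were the members with the lowest p. For tRNA synthetases the median was -0.26 and 18 of 20 were negative, but only *Rars* (-0.67 ± 0.26) had a p under 0.05. None of these genes passed the test.

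The lists of respiratory complexes and mitochondrial ribosomal proteins had median loadings above 0 in both regions, with the larger value in DS. Respiratory complex I genes had a median loading of 0.64 in Acb and 0.90 in DS and a median interaction of -0.29, with 34 of 37 negative and 1 lower at an unadjusted p under 0.05, a share near the 2.88% of all genes. For complexes II to V the loadings were 0.41 and 0.76 and the interaction was -0.30, with 43 of 47 negative and 7 with a p under 0.05. Mitochondrial ribosomal proteins had 0.64, 0.84 and -0.17, with 64 of 77 negative and 4 with a p under 0.05. With the trend on transcript length removed, the median interactions of complex I, complexes II to V and mitochondrial ribosomal proteins were -0.08, -0.10 and -0.09. Without DS lysate 1 the median of complex I was -0.13. *Ndufb7*, a complex I subunit, rose from 84.7 to 147 CPM in Acb and from 68.3 to 185 CPM in DS, which gave an interaction of -0.63 ± 0.25. *Cox5a*, of cytochrome c oxidase, went from 98.5 to 194 CPM in Acb and from 82.6 to 261 CPM in DS (-0.67 ± 0.26). *Mrps12* was at -0.89 ± 0.32. Proteasome (-0.10), glycolysis (-0.16) and citric acid cycle (-0.11) genes had medians closer to that of all genes, each of which changed sign under 1 or 2 alternatives.

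**Figure D4:**
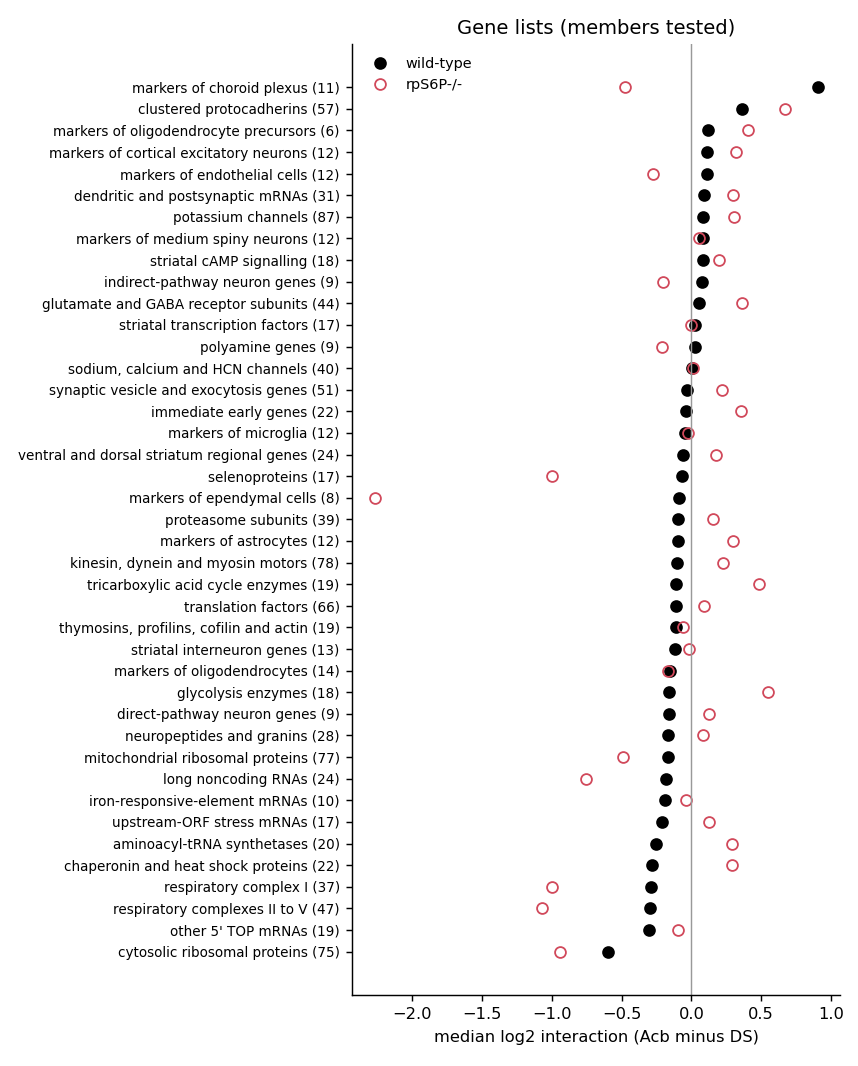
Median log2 interaction (loading in Acb minus loading in DS) of each gene list in wild-type libraries, with the value in knockin libraries beside it. Cytosolic ribosomal proteins have the lowest wild-type median among the functional lists, at -0.60, where the median over all genes is -0.03.

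Loading was lower for genes of longer coding sequence in both regions, except in the shortest class. The median loading was -0.08 in Acb and 0.12 in DS with up to 300 coding bases. It was 0.53 and 0.67 with 300 to 500 bases, and -0.76 in both regions above 4000 bases. Across 11638 genes with at least 50 reads, the length of the coding sequence had a Spearman correlation of -0.572 with the loading in Acb and -0.611 in DS. Its correlation with the interaction was 0.141, and that of transcript length was 0.226 across 11715 genes. These values are a description across genes. Ribosomal protein genes lay below other genes of like length. Among genes with 300 to 500 coding bases, the median interaction was -0.62 for 33 ribosomal protein genes and -0.17 for the other 687. With 500 to 750 bases it was -0.51 for 20 ribosomal protein genes and -0.09 for 1296 others, and with up to 300 bases it was -0.73 for 8 and -0.19 for 196. With a trend on transcript length removed from each library, the median of the ribosomal proteins was -0.41, and without DS lysate 1 it was -0.55.

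Besides ribosomal proteins, 4 genes were named for a low interaction. *Calcr*, the calcitonin receptor (chr6:3685678-3764713), was found almost only in Acb. It had 159, 184 and 85 reads in Acb whole lysates and 321, 180 and 277 reads in Acb heavy fractions. In DS it had 0, 0 and 0 reads in whole lysates and 0, 7 and 30 reads in heavy fractions. Against a floor of 3 reads over the DS whole lysates (0.066 CPM), the pooled level was at least 168-fold higher in Acb whole lysates, at least 136-fold higher in Acb heavy fractions and at least 11.3-fold higher in DS heavy fractions. The fitted interaction, -6.90, rests on a group at 0, so that the loading in DS was not measured and the value is no estimate of size. The gene had at least 50 reads on average only through its Acb libraries. It passed with the block (adjusted p = 0.0392), and DS lysate 1 had no read in either fraction.

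*Snx8*, an endosomal sorting nexin, and *Abhd11*, a hydrolase of mitochondria, had similar levels in the fractions of Acb and a higher level in the heavy fractions than in the whole lysates of DS. *Snx8* was at 11.2, 19.1 and 18.0 CPM in Acb whole lysates and 13.5, 14.6 and 20.6 CPM in Acb heavy fractions, against 7.18, 6.59 and 7.10 CPM and 22.4, 17.7 and 16.4 CPM in DS. Its interaction was -1.42 ± 0.39. *Abhd11* was at 18.8, 21.2 and 23.8 CPM and 23.6, 20.4 and 20.7 CPM in Acb, against 14.2, 19.8 and 17.9 CPM and 38.6, 34.0 and 37.4 CPM in DS (-1.06 ± 0.30). The lysates of the regions did not overlap for either gene. *Use1*, a SNARE protein of the endoplasmic reticulum, had loadings of -0.56 in Acb and 0.25 in DS, with an interaction of -0.81 ± 0.24.

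In the opposite direction, the rule named 12 genes, and the fitted loading in DS was below 0 for each of them. *Prrt1*, which encodes an AMPA receptor-associated protein, varied little between replicates. It was at 17.7, 12.2 and 15.8 CPM in Acb whole lysates and 18.8, 17.4 and 15.9 CPM in heavy fractions, but at 35.7, 31.2 and 36.9 CPM and 17.5, 18.5 and 17.9 CPM in DS. The heavy fractions of the regions were alike and the DS whole lysates were higher, with an interaction of 1.13 ± 0.31. *Lyrm9* had lysate differences of -0.51, -0.40 and 0.38 in Acb and -1.60, -1.92 and -0.77 in DS (1.18 ± 0.32). *Cog5*, of the Golgi tethering complex, had -1.02, -0.33 and -0.25 in Acb and -2.48, -1.55 and -1.28 in DS (1.25 ± 0.37).

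*Cit*, the citron kinase (chr5:115845224-116008953), was one of the genes that passed with the block. Its level was 46.4, 32.4 and 21.4 CPM in Acb and 46.2, 55.0 and 48.6 CPM in DS whole lysates, against 25.3, 25.4 and 27.5 CPM and 9.32, 24.9 and 17.9 CPM in heavy fractions. The interaction was 1.15 ± 0.35 without the block and 1.31 ± 0.30 with it (adjusted p = 0.0392). *Mib1*, an E3 ubiquitin ligase that acts on Notch ligands, had a like value of 1.17 ± 0.36, and *Soga1* had 1.22 ± 0.36. The larger fitted values belonged to rarer mRNAs with larger errors. They were *Hipk2* (2.83 ± 0.84), *Ccdc176* (2.41 ± 0.68), *Zfp81* (2.38 ± 0.71), *A630007B06Rik* (2.01 ± 0.55) and *Dpy19l4* (1.93 ± 0.56). Each of them, and *Mib1* and *Soga1*, had Acb lysates above DS lysates without overlap, as did 3.80% of the 11960 genes with at least 50 reads. Since these genes were chosen by a low p over the same lysates, the lack of overlap adds no support for them.

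*Tmem38b*, a cation channel subunit of the endoplasmic reticulum (chr4:53825988-53862019), did not have one direction in the Acb lysates. It was at 86.0, 47.0 and 134 CPM in Acb whole lysates and at 982, 584 and 45.3 CPM in Acb heavy fractions. In DS it was at 91.4, 130 and 120 CPM and at 58.2, 179 and 70.6 CPM. Acb lysates 1 and 2 were thus higher in heavy fractions by 3.51 and 3.63, but Acb lysate 3 was at -1.56, under each DS lysate. The interaction was 2.75 ± 0.66 and ranged from 1.98 to 3.42 when single libraries were left out. With the block it was 2.53 ± 0.25 (adjusted p = 1.11e-19 by edgeR). That smaller error does not reflect how far apart the Acb lysates were.

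**Figure D5:**
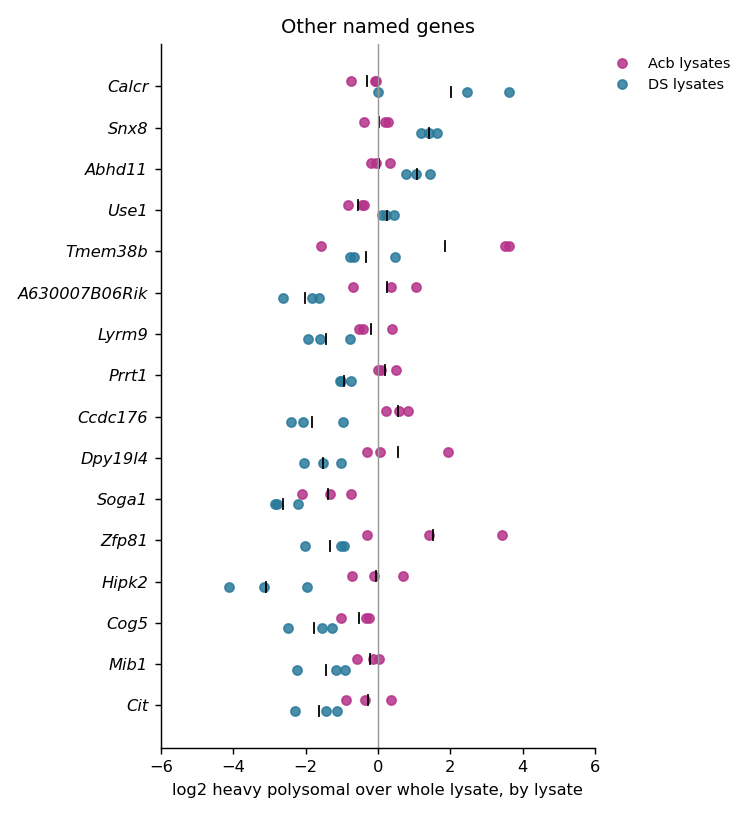
Difference of heavy polysomal and whole lysate log2 CPM in the 3 Acb and 3 DS wild-type lysates for genes named by the rule. For *Tmem38b* the Acb lysates are spread from -1.56 to 3.63.

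*Bc1* (chr7:144914470-144914623), which represses initiation at synapses, was depleted from heavy fractions in every lysate. The lysate differences were -2.77, -3.36 and -5.17 in Acb and -2.44, -2.86 and -3.65 in DS, and the regions overlapped. The interaction was -0.67 ± 0.32, between -1.07 and -0.32 when single libraries were left out. It passed with the block, at -0.76 ± 0.15 (adjusted p = 0.00301). *Bc1* is transcribed by RNA polymerase III and carries an internal A-rich stretch.

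Most lists of neuronal function lay near the median of all genes. The median interaction was -0.16 for markers of the direct pathway, 0.08 for those of the indirect pathway, -0.04 for immediate early genes and -0.16 for neuropeptides. Without DS lysate 1 it was -0.04 for the direct pathway and -0.02 for neuropeptides. It was 0.06 for glutamate and GABA receptor subunits, 0.08 for potassium channels, 0.08 for cAMP signalling and -0.03 for synaptic vesicle genes. The medians of both pathways, immediate early genes, neuropeptides and synaptic vesicle genes changed sign under at least 1 alternative, as did that of all genes. Clustered protocadherins, adhesion proteins that give neurons their surface identity, had a median of 0.36 over 57 genes. It lay between 0.19 and 0.82 over the alternatives, and 1 member had an unadjusted p under 0.05 in each direction. Over the 26 members with at least 50 reads the median was 0.11, so the larger value rested on members with fewer reads. Of these 26, 3 had Acb lysates below DS lysates without overlap (5.85% of all such genes) and 0 had them above (3.80%). Single members with an unadjusted p under 0.05 were found in both directions, without any that passed. *Gpr52*, an orphan receptor of indirect pathway neurons, was at 0.93 ± 0.39. *Chrm4*, the muscarinic receptor of direct pathway neurons, was at -0.61 ± 0.26, and *Nrgn*, a postsynaptic calmodulin-binding protein also abundant in cortex, was at -0.51 ± 0.22. Immediate early genes had 0 of 22 members with a p under 0.05.

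Marker levels of several cell types differed between the regions, and their part in the interactions was not tested. Markers of cortical excitatory neurons summed to 345 to 456 CPM in Acb and 1236 to 1406 CPM in DS whole lysates. Markers of astrocytes (2413 to 2971 CPM against 1677 to 1804 CPM), oligodendrocytes (4080 to 4731 against 3091 to 3817) and microglia (310 to 403 against 174 to 198) were higher in Acb. In heavy fractions the order was the same, at 353 to 530 against 1468 to 1646 CPM for cortical neurons, 1846 to 2556 against 1171 to 1567 CPM for astrocytes and 425 to 586 against 253 to 280 CPM for microglia. Choroid plexus markers had a summed level of 40.0 to 70.2 CPM in Acb and 13.2 to 22.1 CPM in DS whole lysates, and *Otx2*, *F5*, *Kcne2* and *Kcnj13* were at 0 in DS heavy fractions. This list had the highest median interaction, 0.91 over 11 genes, at levels near the limit of detection and with a range of 0.58 to 2.33 over the alternatives. *Clic6*, an intracellular chloride channel of this list, was at 28.0 and 46.5 CPM in Acb and 13.9 and 12.2 CPM in DS (0.91 ± 0.33).

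The same contrast in the 12 libraries of rpS6P-/- mice, in which the phosphorylation sites of rpS6 are replaced by alanine, served as the comparison. There, 977 of 16639 genes passed (5.87%), 656 lower in Acb (3.94%) and 321 higher (1.93%). The count was 529 with a trend on transcript length removed and 477 without DS heavy replicate 3. Among ribosomal proteins 48 genes passed, each lower in Acb, and the median interaction was -0.94 beside -0.60 in the wild type. The difference between the genotypes, which is the test of whether these values differ, was passed by 0 of 17365 genes in edgeR, with 1623 at an unadjusted p under 0.05 (9.35%), by 3 genes in DESeq2 and by 187 with the lysate as a block. Of the 656 genes lower in the knockin, 539 had a negative interaction in the wild type, with medians of -1.15 and -0.25. Of the 321 higher genes, 193 were positive in the wild type, with medians of 0.85 and 0.07. Lists with a lower knockin median than ribosomal proteins included complexes II to V (-1.07) and complex I (-1.0). Coding length had a Spearman correlation of 0.430 with the knockin interaction, beside 0.141 in the wild type. With 300 to 500 coding bases the knockin median was -1.10 for 33 ribosomal protein genes and -0.75 for 687 others. With up to 300 bases it was -1.71 for 8 and -1.23 for 196.

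The leading genes of the knockin contrast were followed back to the wild type. *Rpl39*, of the large subunit, was at -2.27 ± 0.26 in the knockin and -0.55 in the wild type, while *Atp5e*, the epsilon subunit of ATP synthase, was at -2.16 ± 0.26 and -0.10. *Pcp4*, a regulator of calmodulin, was at -1.96 ± 0.24 and -0.03. In the other direction, *Hap1* was at 1.17 ± 0.24 and -0.07, and *Nova2* was at 1.06 ± 0.22 and 0.37. The adjusted p of the genotype difference lay between 0.0792 and 0.574 for these 5 genes. Complex I genes had a median of -1.0 in the knockin and -0.29 in the wild type, and tRNA synthetases had 0.29 and -0.26. The medians of the synthetases, but not those of complex I, thus took opposite signs between genotypes. Signs were also opposite for chaperonin and heat shock genes (0.29 and -0.28), translation factors (0.09 and -0.11) and glycolysis (0.55 and -0.16). The same held for the citric acid cycle (0.48 and -0.11) and the proteasome (0.15 and -0.10). Signs were shared for complexes II to V (-1.07 and -0.30), mitochondrial ribosomal proteins (-0.49 and -0.17) and the other TOP mRNAs (-0.10 and -0.30).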

How the data were processed

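RNA-seq of whole lysates and heavy polysomal fractions was measured in 3 replicates per region. The authors deposited unnormalized read counts for 24079 genes. Per the methods and labels, the authors used poly-A selected, stranded libraries, CASAVA 1.8.2, FastQC, TopHat2 2.0.13 with Bowtie2 2.2.3 on mm10, alignments with at most 3 mismatches, and HTSeq 0.6.1p1 (union, strand opposite). Runs were added to replace reads of bacterial contamination, and the libraries concerned are not labelled.

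From these counts, genes with under 15 reads summed over the fitted libraries were removed, and edgeR 4.0.16 (TMM, quasi-likelihood, legacy settings, R 4.3.3) tested the interaction of fraction and region, with Benjamini-Hochberg adjustment and a threshold of 0.05. CPM are counts scaled by library size and TMM factor, and log2 CPM used a prior count of 2. Replicates are pools of mice, so p-values of the fit without the block draw on the spread between pools. With the block they rest on a spread shared by genes, and that of a gene's own lysates did not enter. The heavy and whole lysate libraries of a lysate share mice, since input was kept from each lysate, and their residuals correlated between -0.00634 and 0.0741, so a fit with the lysate as a block was run. Other alternatives were DESeq2 1.42.0 (size factors, Wald test), limma-voom (limma 3.58.1), other filters, *Bc1* left out of library sizes, a length trend removed (loess, span 0.5), all 24 libraries, and each library left out. A fit without DS lysate 1, per-lysate differences and the list of 19 TOP mRNAs were added after seeing the data.

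Named genes are, per direction, those that passed, then those with at least 50 reads on average and the lowest p, up to 12, with the 2 lowest in p of each of 40 gene lists, plus *Bc1* and genes that passed with the block. Some genes that meet the rule are not reported here. The members, lists and rule were chosen with earlier results of these data known. Genes were matched to a position for 99.8% and a coding length for 92.6% of those tested. On simulated counts of 16302 genes with 200 changed by 1.5 (log2), edgeR found 139 with 13 other calls. The changed genes had at least 50 reads on average. Smaller changes, such as those measured for ribosomal proteins, were not simulated, so the share found at their size is not known. Figures used Python 3.11.15 and matplotlib 3.10.9.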

Additional observations from a re-analysis of the deposited data

Results flagged for a closer look

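The test of a difference between regions singled out 7 genes when the lysate was a block, none of which passed without it. Calls with the block do not measure the spread of a gene's own lysates. *Rpl37* (-1.03), *Rpl41* (-0.98), *Rplp2* (-0.94) and *Bc1* (-0.76) had a lower loading in Acb, and *Cit* (1.31) and *Tmem38b* (2.53) had a higher one. For *Rplp2*, *Bc1* and *Tmem38b* the lysates of the regions overlapped. The fitted value of *Calcr* (-6.44) rests on DS whole lysates at 0 reads, so that its loading in DS was not measured and no size can be read from it.

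In rpS6P-/- libraries the same contrast was passed by 977 genes, among them 48 ribosomal protein genes. The genes named there were *Rpl39* (-2.27), *Pcp4* (-1.96), *Atp5e* (-2.16), *Hap1* (1.17) and *Nova2* (1.06).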

How the results depend on the processing

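The wild-type interaction called 0 genes, and also 0 with DESeq2's size factors, *Bc1* left out, filterByExpr, limma-voom, the length trend removed and all 24 libraries. It called 5 genes with no filter beyond 1 read, 1 with DESeq2, 7 with the lysate (replicate) block, 2 with the block and the length trend removed, and 0 to 3 when single libraries were left out (1 without DS heavy replicate 1, 3 without replicate 2, 2 without Acb heavy replicate 1 and 1 without replicate 3). With the block the median of the ribosomal proteins was -0.59. Over the alternatives that median stayed negative, between -0.74 (without DS heavy replicate 2) and -0.40 (block with the length trend removed). The DS loading called 4055 genes and 2567 without DS lysate 1, 2567 to 4232 with libraries left out, and the Acb loading called 2908 to 4079. In the knockin, the interaction called 977 genes, 529 with the length trend removed and 477 (without DS heavy replicate 3) to 1434 when single libraries were left out, with 525 to 584 without Acb heavy replicate 3 or any DS whole lysate. The genotype difference called 0 genes, 126 with no filter, 3 with DESeq2, 187 with the block, 122 with the block and the length trend removed, and 0 to 90 when single libraries were left out (90 without knockin Acb heavy replicate 1, 64 without wild-type DS heavy replicate 3, 31 and 4 without wild-type Acb heavy replicates 3 and 2). The causes were not tested. For named genes, 21 values in 7 genes passed under an alternative and 0 reversed. Depth limited genes under 50 reads, where 1 library can set a value.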
